A study of Mus musculus with 11 samples.

Results

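The genes described here are 37 mouse genes for factors that build ribosomes, read from RNA sequencing of peritoneal PMNs (neutrophils). They were chosen by name from a table of 54164 genes, and the list was drawn up with their levels in FOXO3 KO and WT PMNs of these same libraries already known. The values that entered the choice are thus those of the comparison of genotypes. All 37 were found in the table, and all 37 passed the filter of a mean of at least 1 TPM (transcript abundance as a share of all transcripts in the library, already corrected for transcript length), as did 12195 genes in all. That comparison is therefore given as a description, with calls counted over all genes of the table and none read as a test of the 37. The tests given for single genes concern a split of the libraries that the choice did not use, and whether the difference between genotypes itself differed across that split.

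The libraries came from FOXO3 KO mice (6 libraries) and WT mice (5 libraries), with 1 library per mouse. All were C57BL/6 mice, male and female, 6 to 8 weeks old. FOXO3 KO mice were homozygous for the knock-out and WT mice were homozygous for the intact gene, as found by genotyping littermates. FOXO3 is a forkhead transcription factor, and its knock-out was carried by the whole mouse and not by PMNs alone. Every mouse of both genotypes had received 2 intraperitoneal injections of 1 mL casein on consecutive days. Peritoneal cells were taken 3 h after the last injection and enriched for PMNs on a density gradient. The table's columns carry numbers in 2 series. In the first series, numbers 1 to 3 occur in both genotypes (3 FOXO3 KO and 3 WT libraries). In the second series the numbers have 2 digits, with FOXO3 KO 05, 06 and 09 and WT 03 and 08. Neither the labels nor the study's methods say what the numbers stand for. The targeted gene Foxo3 was at 1.68, 2.18 and 2.004 TPM in FOXO3 KO 1, 2 and 3 and 3.68, 4.27 and 0.844 TPM in FOXO3 KO 05, 06 and 09, against 10.3, 7.61 and 9.30 TPM in WT 1, 2 and 3 and 11.7 and 7.63 TPM in WT 03 and 08. The groups did not overlap for Foxo3, as the labels have it. The labels do not give the sex of each mouse. Ddx3y, a gene of the Y chromosome, was at 42.9 and 18.03 TPM in FOXO3 KO 3 and 09. In WT 03 and 08 it was at 20.2 and 18.3 TPM, and in every other library at 0.26 TPM or less. By this gene, sex was not balanced between the series, or between genotypes within a series. Its part in the differences between series was not tested.

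Ribosomes are assembled mainly in the nucleolus. RNA polymerase I transcribes a long precursor rRNA, small nucleolar ribonucleoproteins (snoRNPs) modify it, and a large early assembly called the small subunit processome folds and cleaves it. The precursors of the small (40S) and large (60S) subunits then mature along separate routes, and late factors keep the 40S precursor from translating before it is finished. Mature PMNs are short-lived cells that no longer divide. In many cell types, genes for these factors are known targets of MYC, a transcription factor that binds the E-box CACGTG.

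Promoter sequence was searched first, because the E-box is the motif best known for this class of genes and FOXO factors bind the forkhead core GTAAACA. Windows from 250 bases before to 50 bases after the annotated start (RefSeq, GRCm38.p6) were at hand for 34 of the 37 genes; Bop1, Npm1 and Fbl were not matched. Of the 34, 4 had more than 1 annotated start, and a gene was counted where any of its windows held the motif. The E-box CACGTG, which reads the same on both strands, lay in the windows of 8 of these 34 genes (23.5%), and in those of 8.09% of all 27025 genes with a window. The forkhead core GTAAACA, searched on both strands (TGTTTAC on the other), lay in 1 of the 34 (2.94%), against 4.05% of all genes. The background shares cover all genes with a window, whether or not they passed the filter on level, which all 37 did. The shares among the genes tested were not computed. Neither motif contains the other. A match is a run of letters and not a measured binding site. The stretches that hold the matches are shown with the motif in capitals, on the strand of the gene, so that the position and flanks of each can be compared.
Tsr1 (chr11:74898093-74898120, plus strand, motif from base 25 after the start): cacttggtgcaCACGTGgactgcagaat
Pes1 (chr11:3963966-3963993, plus strand, base 3 after the start): cctaggcagggCACGTGcgggaggaagt
Wdr43 (chr17:71616221-71616248, plus strand, base 18 after the start): gcccgggcgaaCACGTGgctgccgcgga
Ltv1 (chr10:13193093-13193120, minus strand, base 29 after the start): ccctgtggaccCACGTGtggagctgccg
Pno1 (chr11:17211540-17211563, minus strand, base 38 after the start): gtacaaccacgCACGTGttcctct
Mybbp1a (chr11:72441356-72441376, plus strand, base 41 after the start): tcttctgagccCACGTGtttg
Nop2 (chr6:125131812-125131839, plus strand, base -60 relative to the start): tgtccctggatCACGTGtgttccggtgc
Rrn3 (chr16:13780473-13780500, plus strand, base -215 relative to the start): agcgccaaggtCACGTGcacacgcctct
Rrn3 (chr16:13780640-13780667, plus strand, base -48 relative to the start): tacgctctgctCACGTGggccgcgtccc
Rrp1b, forkhead core on the other strand, at a second start that lies inside the gene (chr17:32048077-32048105, plus strand, base -197 relative to that start): agatttacattTGTTTACagattgtgctg
In 6 of the 8 genes the E-box lay within the first 50 bases after the start, inside the transcribed part, and Rrn3 alone had it at 2 places. No peak or binding data were used here, so nothing was read from a match or its absence about MYC or FOXO3.

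Across the libraries, the 37 genes moved much as a block. Their summed level was 1555, 998 and 876 TPM in FOXO3 KO 1, 2 and 3 and 1947, 1382 and 1070 TPM in FOXO3 KO 05, 06 and 09. It was 1097, 712 and 759 TPM in WT 1, 2 and 3 and 1274 and 863 TPM in WT 03 and 08. The genotypes overlapped, since WT 03 and WT 1 lay above FOXO3 KO 2, 3 and 09. As a mean of log2(TPM + 1) over the 37 genes, FOXO3 KO libraries had 4.56 ± 0.36 (SD, n = 6) and WT libraries 4.12 ± 0.31 (SD, n = 5). FOXO3 KO 05 was the highest of the 11 libraries for 25 of the genes and FOXO3 KO 1 for the other 12. The lowest library was always a WT one, WT 2 for 18 genes, WT 3 for 12 and WT 08 for 7.

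**Figure D1:**
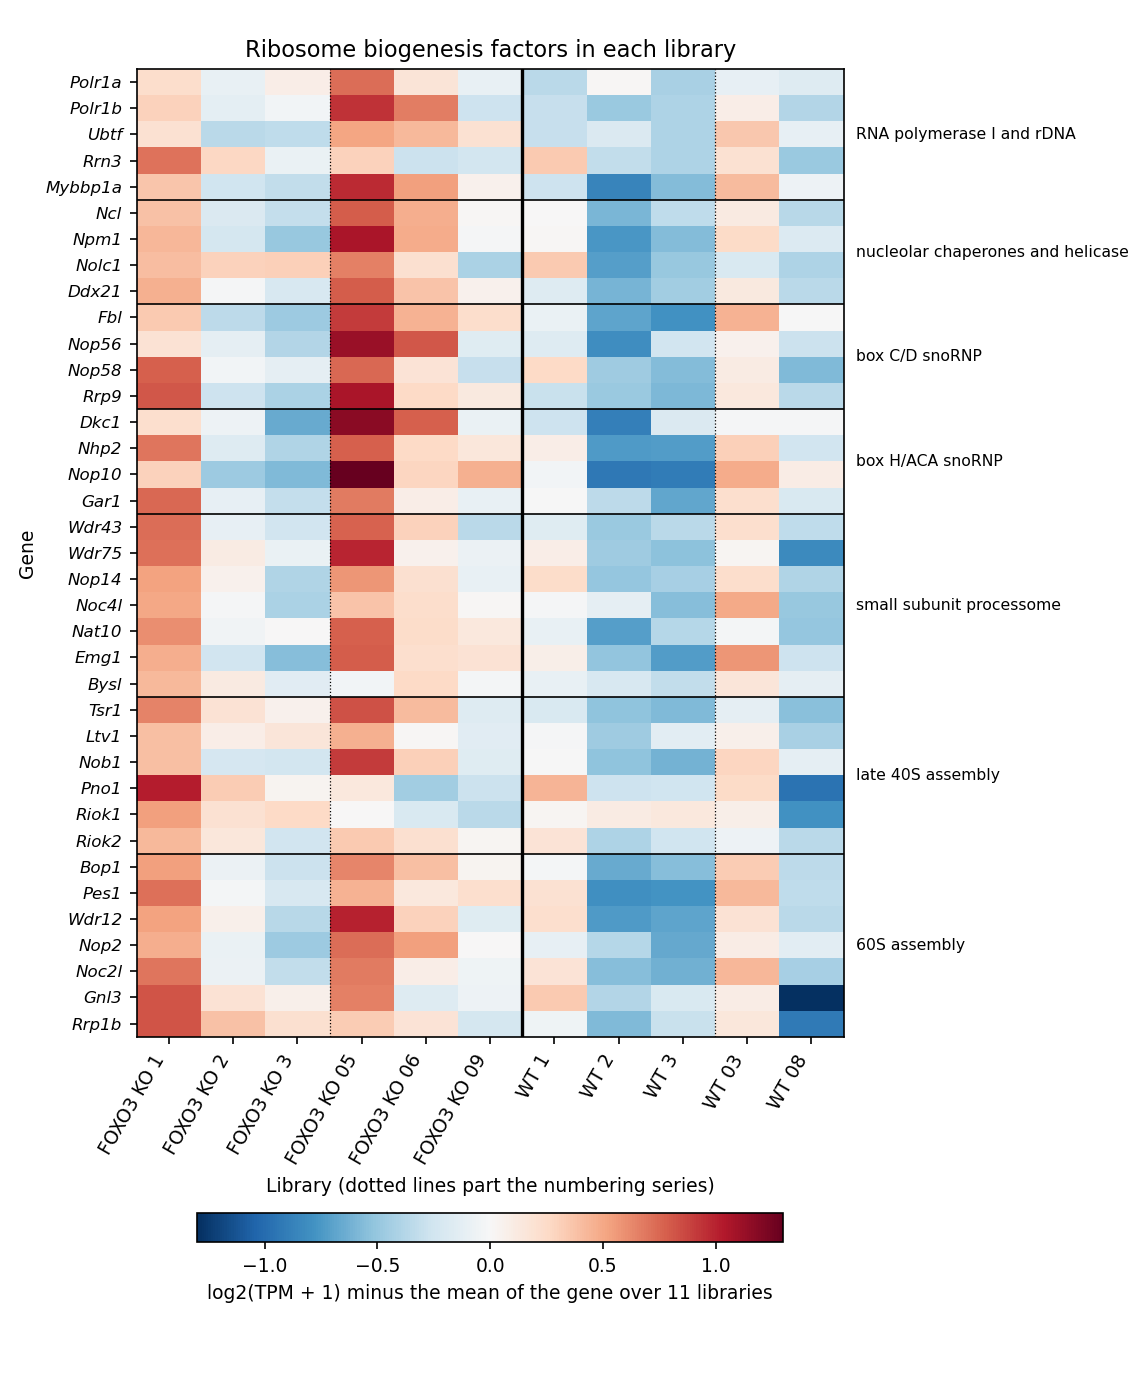
Level of the 37 genes (rows, by role) in the 11 libraries (columns, FOXO3 KO left of the thick line and WT right of it), as log2(TPM + 1) minus the mean of the gene, red above and blue below that mean. FOXO3 KO 1 and 05 are red in nearly every row and WT 2 and 3 are blue in nearly every row, while WT 03 lies above the mean for most genes.

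All 37 genes had a log2 fold change above 0 between FOXO3 KO and WT, with a median of 0.45 on the log2(TPM + 1) scale and a range of 0.16 (Riok1) to 0.71 (Tsr1). The genes were chosen on these values, so this count is a description. Among all 12195 genes tested, 68.6% lay above 0 and the median was 0.11, so the median of the 37 stood 0.34 above that of all genes. Within the first series all 37 lay above 0 (median 0.44, against 0.20 for all genes, of which 76.6% lay above 0). Within the second series all 37 did so as well (median 0.39, against 0.035 for all genes, of which 54.3% lay above 0). In limma, 0 of all 12195 genes tested (0%), and so 0 of the 37, had FDR < 0.05, and 257 of all genes had an unadjusted p under 0.05. None had every FOXO3 KO library above every WT library, a separation seen in 10 of all genes tested (0.082%). Inside the first series 6 were separated in this way, namely Polr1b, Nat10, Tsr1, Ltv1, Riok1 and Rrp1b (background 10.3%). Differences were thus of the order of the spread between mice of 1 genotype.

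Single libraries carried part of this. Without FOXO3 KO 05 the median of the 37 was 0.31 and its distance from the median of all genes was 0.20. Without FOXO3 KO 05 and 06 these were 0.26 and 0.10, an alternative added after the data were seen. The median of all genes itself was 0.06 without FOXO3 KO 1, 0.04 without WT 08 and 0.17 without WT 03. Among genes given library by library, Fbl was at 0.41, with 0.27 without FOXO3 KO 05 or without WT 3. Emg1 was at 0.32, with 0.19 without FOXO3 KO 05, 0.18 without WT 3 and 0.50 without WT 03. Rrn3 was at 0.24, with 0.13 without FOXO3 KO 1 and 0.16 without WT 08, and Ubtf was at 0.24, with 0.15 without FOXO3 KO 05 and 0.36 without WT 03. Under quantile normalization the median of the 37 genes was 0.36 and that of all genes 0.0095. When libraries of equal number were set against each other in the first series, FOXO3 KO 1 lay above WT 1 for 37 genes, FOXO3 KO 2 above WT 2 for 35 and FOXO3 KO 3 above WT 3 for 35. The median differences were 0.52, 0.54 and 0.29, and those of all genes 0.18, 0.22 and 0.21.

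**Figure D2:**
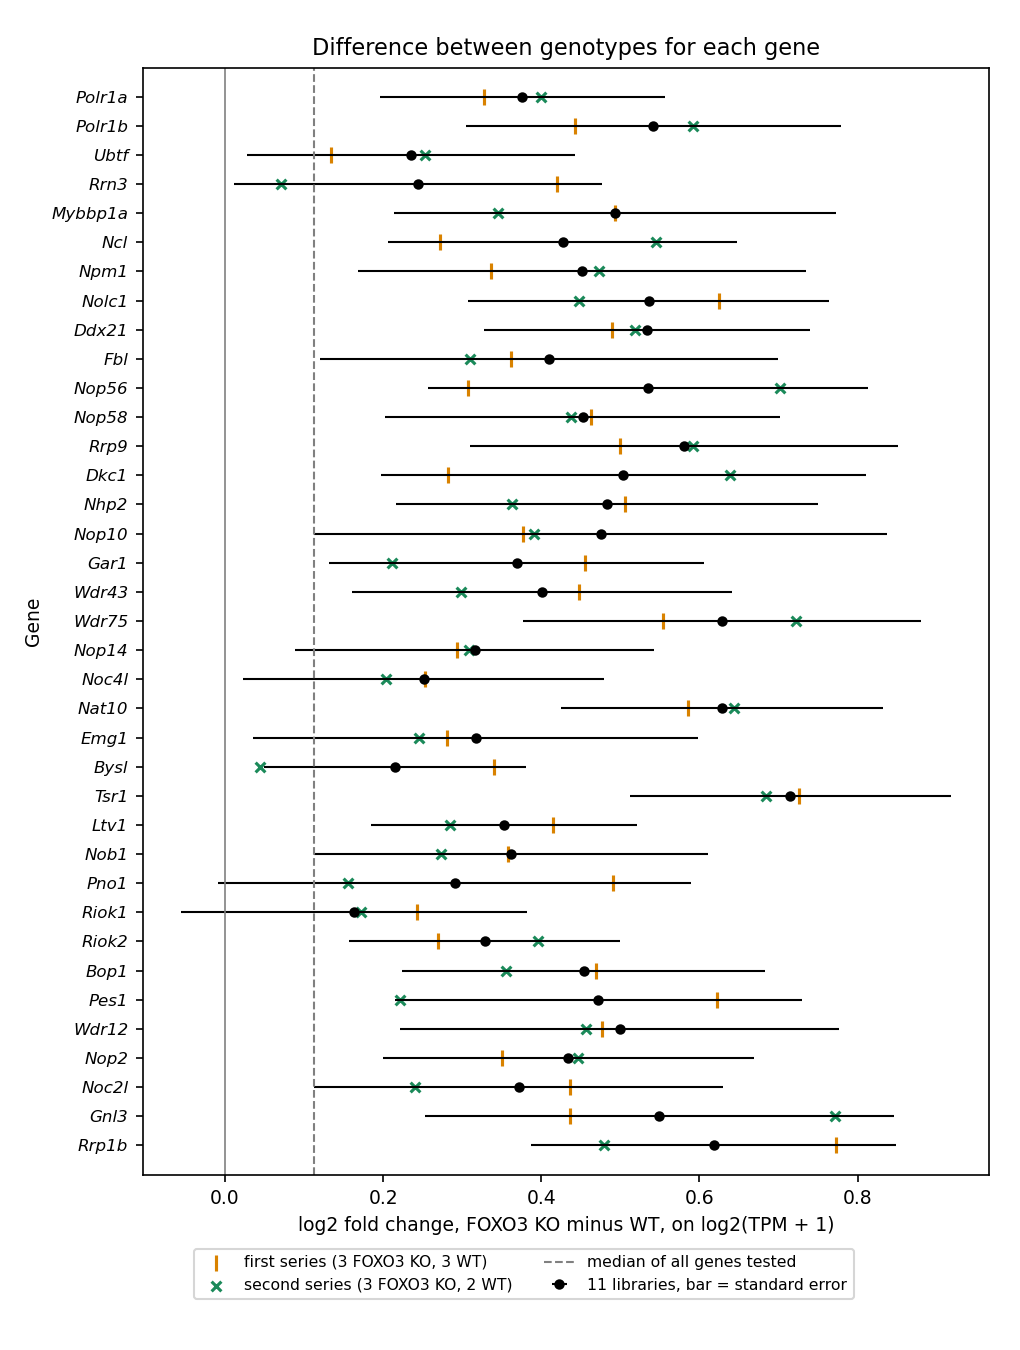
Log2 fold change between FOXO3 KO and WT for each gene on log2(TPM + 1) (black points with standard error, 11 libraries), and the same within the first series (orange bars) and the second (green crosses); the dashed line is the median of all genes tested, 0.11. All points lie right of 0, Tsr1 farthest at 0.71 and Riok1 nearest at 0.16, and the standard errors overlap between most genes.

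Tsr1, a factor of the late 40S precursor that resembles a GTPase and blocks early contacts of that precursor with the translation machinery, had the largest fold change of the 37. It lies on chromosome 11 at 74898071 to 74909342 on the plus strand (GENCODE M21, GRCm38). Tsr1 had 16.6, 11.8 and 10.7 TPM in FOXO3 KO 1, 2 and 3 and 19.05, 13.95 and 8.998 TPM in FOXO3 KO 05, 06 and 09, against 8.78, 6.86 and 6.57 TPM in WT 1, 2 and 3 and 9.42 and 6.73 TPM in WT 03 and 08. In the first series every FOXO3 KO library exceeded every WT library, and over all libraries FOXO3 KO 09 alone fell below the highest WT value. The means were 13.5 ± 3.79 TPM in FOXO3 KO and 7.67 ± 1.33 TPM in WT (SD, n = 6 and 5), a log2 fold change of 0.71 (SE 0.20). Taken alone, the first series gave 0.73 and the second 0.68. Of its exonic bases, 1240 are shared with exons of Srr on the other strand. Srr averaged 1.75 TPM, and the use of strand in counting is not given in the sources used here, so reads of this stretch could not be assigned.

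The introns of Tsr1 hold 2 small nucleolar RNA genes, whose RNAs are processed from the host's intron and guide rRNA modification. Gm22771 averaged 28.3 ± 16.4 TPM in FOXO3 KO and 9.72 ± 3.66 TPM in WT (SD, n = 6 and 5). It was at 37.2, 36.03 and 42.4 TPM in FOXO3 KO 1, 2 and 3 and at 37.2, 16.7 and 0 TPM in FOXO3 KO 05, 06 and 09, against 10.7, 12.5 and 12.3 TPM in WT 1, 2 and 3 and 9.56 and 3.54 TPM in WT 03 and 08. Snord91a averaged 18.1 ± 10.99 TPM in FOXO3 KO and 6.66 ± 9.202 TPM in WT, and was listed at 0 in 2 WT libraries. WT 2, at 22.3 TPM, lay among the FOXO3 KO libraries, and the other 4 WT libraries lay below all of them. At 93 bases (Snord91a) and 91 bases (Gm22771), these RNAs are shorter than the fragments such libraries usually hold, so their TPM are uncertain. In all, 21 small nucleolar RNA genes lie within 7 of the 37 genes. Of these, 9 were listed at 0 in every library, each of them overlapping an exon of its host, and 11 had a mean of at least 1 TPM. Of the 11, 8 had the higher mean TPM in FOXO3 KO. Among all genes tested, 68.6% had a log2 fold change above 0, a value on log2(TPM + 1), so the measures are unlike. Some of the 11 were at 0 in most libraries, Gm24451 in 8 and Gm25520 in 9 of the 11 libraries, so few libraries set their means. The lower mean was in FOXO3 KO for Snord82 in Ncl (7.42 against 8.10 TPM in WT). So it was for Gm26287 and Snord11 in Nop58 (5.45 against 5.83 TPM and 0.89 against 1.96 TPM).

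The other late 40S factors had smaller fold changes than Tsr1, and the 6 genes of the group had a median of 0.34. Ltv1, which accompanies the 40S precursor out of the nucleus, had 0.35 (SE 0.17), with 4 of 6 FOXO3 KO libraries above the highest WT library. Nob1, the nuclease that trims the end of 18S rRNA, had 0.36 (SE 0.25), and its partner Pno1 had 0.29 (SE 0.30). Riok2, an atypical kinase of the late 40S precursor, had 0.33 (SE 0.17). Its relative Riok1 had the smallest value of all 37, 0.16 (SE 0.22). Riok1 stood at 22.2, 17.5 and 18.2 TPM in FOXO3 KO 1, 2 and 3 and 15.1, 13.01 and 11.6 TPM in FOXO3 KO 05, 06 and 09, against 15.3, 16.2 and 16.6 TPM in WT 1, 2 and 3 and 15.99 and 8.303 TPM in WT 03 and 08. Its difference turned on 1 library, WT 08, without which the fold change was -0.01. It was 0.07 without FOXO3 KO 1 and 0.25 without FOXO3 KO 09.

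RNA polymerase I factors lay between 0.24 and 0.54 (median 0.38 over 5 genes). Polr1a and Polr1b, the large subunits of the polymerase, had 0.38 (SE 0.18) and 0.54 (SE 0.24). Ubtf, which coats the active rRNA genes, was the lowest of the group at 0.24 (SE 0.21). Mybbp1a, a nucleolar protein tied to rRNA transcription and processing, had 0.49 (SE 0.28). Rrn3, the initiation factor that brings the polymerase to the rRNA promoter, had 11.1, 7.91 and 5.97 TPM in FOXO3 KO 1, 2 and 3 and 8.11, 5.11 and 5.29 TPM in FOXO3 KO 05, 06 and 09. The WT libraries had 8.38, 4.93 and 4.62 TPM in WT 1, 2 and 3 and 7.49 and 4.31 TPM in WT 03 and 08. For Rrn3 the first series gave a fold change of 0.42 and the second 0.07, and only FOXO3 KO 1 exceeded the highest WT library.

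The 2 most abundant of the 37 were nucleolar chaperones. Npm1, nucleophosmin, had 305, 192 and 161 TPM in FOXO3 KO 1, 2 and 3 and 471, 315 and 224 TPM in FOXO3 KO 05, 06 and 09, against 229, 133 and 152 TPM in WT 1, 2 and 3 and 268 and 199.8 TPM in WT 03 and 08. Its fold change was 0.45 (SE 0.28), and 0.28 without FOXO3 KO 05, and FOXO3 KO 3 lay under 3 of the 5 WT libraries. Ncl, nucleolin, which binds nascent rRNA, had 133, 89.2 and 81.8 TPM in FOXO3 KO 1, 2 and 3 and 176, 141 and 103 TPM in FOXO3 KO 05, 06 and 09. Its WT libraries had 102, 67.04 and 80.3 TPM in WT 1, 2 and 3 and 110.3 and 78.6 TPM in WT 03 and 08, which gave 0.43 (SE 0.22). Nolc1, a chaperone of snoRNPs, and Ddx21, a nucleolar RNA helicase, had 0.54 (SE 0.23) and 0.53 (SE 0.21). The 4 genes of this group had a median of 0.49.

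**Figure D3:**
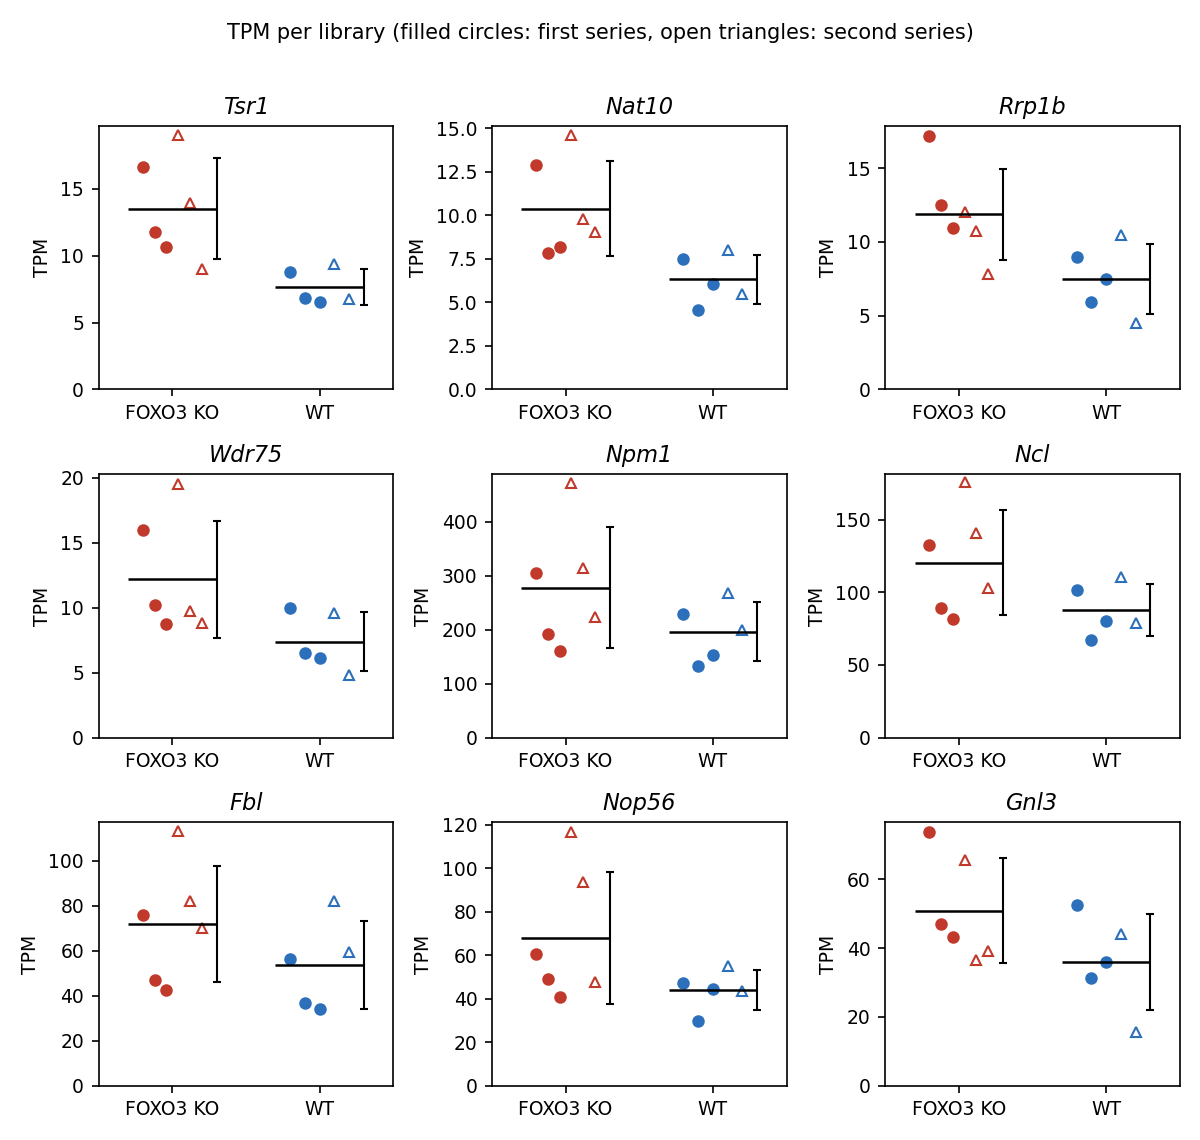
TPM of 9 genes in each library, FOXO3 KO (red) left of WT (blue), with filled circles for the first series and open triangles for the second; horizontal lines are means and bars are SD (n = 6 and 5). For Tsr1, Nat10 and Rrp1b, 5 of 6 FOXO3 KO libraries lie above the highest WT library, while for Npm1, Ncl, Fbl, Nop56, Wdr75 and Gnl3 the genotypes overlap more.

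Box C/D snoRNPs, which add methyl groups to the ribose of rRNA, had a median fold change of 0.49 over 4 genes. Fbl, fibrillarin, the methyltransferase itself, had 75.7, 47.03 and 42.7 TPM in FOXO3 KO 1, 2 and 3 and 113, 82.2 and 70.3 TPM in FOXO3 KO 05, 06 and 09, against 56.1, 36.8 and 34.1 TPM in WT 1, 2 and 3 and 82.01 and 59.5 TPM in WT 03 and 08. Fbl had a fold change of 0.41 (SE 0.29), and within each series 1 or more FOXO3 KO libraries lay below the highest WT library. The core proteins Nop56 and Nop58 form the scaffold of the particle. Nop56 had 60.8, 48.9 and 40.6 TPM in FOXO3 KO 1, 2 and 3 and 117, 93.7 and 47.6 TPM in FOXO3 KO 05, 06 and 09, against 47.2, 29.9 and 44.5 TPM in WT 1, 2 and 3 and 55.2 and 43.7 TPM in WT 03 and 08. FOXO3 KO 05 and 06 stood well above every other library for Nop56. Nop58 had 107, 60.2 and 56.97 TPM in FOXO3 KO 1, 2 and 3 and 104, 70.01 and 49.95 TPM in FOXO3 KO 05, 06 and 09. In WT it had 74.3, 44.6 and 41.5 TPM in WT 1, 2 and 3 and 66.6 and 41.4 TPM in WT 03 and 08. For Nop58 it was FOXO3 KO 1 and 05 that stood above the highest WT library. Nop56 and Nop58 had fold changes of 0.53 (SE 0.28) and 0.45 (SE 0.25). Rrp9, a protein of the U3 particle that takes part in the first cleavages of the precursor, had 26.5, 12.1 and 10.8 TPM in FOXO3 KO 1, 2 and 3 and 31.7, 17.7 and 16.2 TPM in FOXO3 KO 05, 06 and 09. Its WT values were 11.8, 10.2 and 9.46 TPM in WT 1, 2 and 3 and 16.2 and 11.3 TPM in WT 03 and 08, a fold change of 0.58 (SE 0.27). FOXO3 KO 1 and 05 were again the highest, and FOXO3 KO 3 lay below 3 WT libraries.

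Box H/ACA snoRNPs, which convert uridine to pseudouridine, had a median of 0.48 over 4 genes. Dkc1, dyskerin, the pseudouridine synthase, had 17.7, 14.3 and 9.19 TPM in FOXO3 KO 1, 2 and 3 and 35.2, 26.5 and 14.1 TPM in FOXO3 KO 05, 06 and 09, against 12.3, 7.65 and 13.1 TPM in WT 1, 2 and 3 and 14.8 and 14.9 TPM in WT 03 and 08. As for Nop56, FOXO3 KO 05 and 06 stood apart, and the other 4 FOXO3 KO libraries covered nearly the same range as WT. Dkc1 had 0.50 (SE 0.31) over all libraries, 0.28 within the first series and 0.64 within the second, and 0.31 without FOXO3 KO 05. Nop10, the smallest protein of the particle, had 27.9, 15.8 and 14.7 TPM in FOXO3 KO 1, 2 and 3 and 56.5, 27.3 and 31.2 TPM in FOXO3 KO 05, 06 and 09. The WT values of Nop10 were 21.8, 11.3 and 11.5 TPM in WT 1, 2 and 3 and 31.7 and 23.9 TPM in WT 03 and 08. Only FOXO3 KO 05 exceeded the highest WT library, and the fold change was 0.48 (SE 0.36). It was 0.26 without FOXO3 KO 05 and 0.31 without either WT 2 or WT 3. The remaining subunits Nhp2 and Gar1 had 0.48 (SE 0.27) and 0.37 (SE 0.24).

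The small subunit processome had a median of 0.32 over 7 genes and a range of 0.22 to 0.63. Nat10, which acetylates cytidines of 18S rRNA, had 12.9, 7.86 and 8.19 TPM in FOXO3 KO 1, 2 and 3 and 14.6, 9.78 and 9.01 TPM in FOXO3 KO 05, 06 and 09, against 7.51, 4.55 and 6.06 TPM in WT 1, 2 and 3 and 7.98 and 5.45 TPM in WT 03 and 08. FOXO3 KO 2 alone lay below the highest WT library, and the fold change was 0.63 (SE 0.20). Wdr75, a member of the subcomplex that binds the nascent precursor first, had 15.9, 10.2 and 8.76 TPM in FOXO3 KO 1, 2 and 3 and 19.5, 9.76 and 8.83 TPM in FOXO3 KO 05, 06 and 09. WT libraries had 9.95, 6.49 and 6.12 TPM in WT 1, 2 and 3 and 9.55 and 4.84 TPM in WT 03 and 08. For Wdr75 the fold change was 0.63 (SE 0.25), but 3 FOXO3 KO libraries lay below the highest WT library. Wdr43, of the same subcomplex, had 0.40 (SE 0.24). Emg1, a methyltransferase of a modified uridine in 18S rRNA, was the most abundant of the group. It had 66.8, 40.1 and 32.4 TPM in FOXO3 KO 1, 2 and 3 and 83.5, 55.7 and 54.7 TPM in FOXO3 KO 05, 06 and 09, against 50.6, 33.2 and 28.5 TPM in WT 1, 2 and 3 and 71.9 and 39.5 TPM in WT 03 and 08. With a fold change of 0.32 (SE 0.28), Emg1 overlapped broadly between genotypes, and only FOXO3 KO 05 passed WT 03. Nop14 and Noc4l, which act together, had 0.32 (SE 0.23) and 0.25 (SE 0.23). Bysl, bystin, had 0.22 (SE 0.17) at the lowest mean level of the 37, 4.79 TPM. It shares 361 exonic bases with Ccnd3 on the other strand, which averaged 112 TPM.

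Factors of the 60S subunit had a median of 0.47 over 7 genes. Rrp1b, a nucleolar protein of the 60S route, had 17.2, 12.5 and 10.9 TPM in FOXO3 KO 1, 2 and 3 and 12.1, 10.7 and 7.82 TPM in FOXO3 KO 05, 06 and 09, against 8.96, 5.96 and 7.49 TPM in WT 1, 2 and 3 and 10.5 and 4.47 TPM in WT 03 and 08. FOXO3 KO 09 alone lay below the highest WT library, WT 03, and the fold change was 0.62 (SE 0.23). Gnl3, nucleostemin, a nucleolar GTP-binding protein, had 73.7, 47.1 and 43.1 TPM in FOXO3 KO 1, 2 and 3 and 65.7, 36.7 and 39.3 TPM in FOXO3 KO 05, 06 and 09. Its WT libraries had 52.5, 31.4 and 35.9 TPM in WT 1, 2 and 3 and 44.2 and 15.5 TPM in WT 03 and 08. WT 08 was far below all others, and the fold change of 0.55 (SE 0.30) was 0.28 without it. Pes1, Bop1 and Wdr12 form 1 complex that is needed for 60S maturation. Their fold changes were 0.47 (SE 0.26), 0.45 (SE 0.23) and 0.50 (SE 0.28). Pes1 had 39.7, 23.3 and 20.4 TPM in FOXO3 KO 1, 2 and 3 and 32.7, 26.1 and 27.7 TPM in FOXO3 KO 05, 06 and 09, against 27.3, 13.2 and 13.5 TPM in WT 1, 2 and 3 and 32.1 and 18.6 TPM in WT 03 and 08. In the second series WT 03 lay among the FOXO3 KO libraries for Pes1, which gave 0.22 there and 0.62 in the first series. Nop2, an rRNA methyltransferase, and Noc2l, a nucleolar factor of the 60S route, had 0.43 (SE 0.23) and 0.37 (SE 0.26).

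A test was possible for the split into numbering series, which was not used to choose the genes. With genotype in the model, 4 of the 37 were higher in the second than in the first series at FDR < 0.05 in limma, and 0 were lower, where the shares among all genes tested were 8.36% higher and 12.3% lower. The median log2 difference of the 37 was 0.22, and that of all genes -0.15. Thus 4 of 37 lies near the share of all genes that were higher. Nop10 averaged 34.1 ± 12.9 TPM in the second series and 17.2 ± 6.502 TPM in the first (SD, n = 5 and 6), a difference of 0.92 (SE 0.25, limma adjusted p = 0.025). Fbl, the methyltransferase of the other class of snoRNP, averaged 81.4 ± 20.1 TPM in the second series and 48.7 ± 15.4 TPM in the first, a difference of 0.71 (SE 0.21, limma adjusted p = 0.031). Mybbp1a averaged 37.1 ± 11.3 TPM in the second series and 22.5 ± 7.04 TPM in the first, a difference of 0.66 (SE 0.21, limma adjusted p = 0.045). Ubtf, with 37.4 ± 6.09 TPM in the second series and 26.1 ± 4.54 TPM in the first, differed by 0.49 (SE 0.15, limma adjusted p = 0.044). In none of the 4 did every library of the second series lie above every library of the first. The values of Nop10 show this, as FOXO3 KO 1 of the first series, at 27.9 TPM, exceeded FOXO3 KO 06 and WT 08 of the second.

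Most single libraries, when left out, lowered the number of calls, while the differences stayed of like size. The number of the 37 genes called higher was 0 without FOXO3 KO 2, FOXO3 KO 3, FOXO3 KO 05 or WT 2, 1 without FOXO3 KO 06, WT 3 or WT 03, 2 without WT 08 and 3 without WT 1. With single libraries left out, the difference was 0.76 to 1.06 for Nop10, 0.62 to 0.84 for Fbl, 0.55 to 0.78 for Mybbp1a and 0.42 to 0.57 for Ubtf. The number called was 10 under quantile normalization and 0 with no filter on low values. Mybbp1a had 35.4, 22.6 and 21.7 TPM in FOXO3 KO 1, 2 and 3 and 54.6, 39.8 and 28.4 TPM in FOXO3 KO 05, 06 and 09, against 22.4, 14.6 and 18.2 TPM in WT 1, 2 and 3 and 36.7 and 26.002 TPM in WT 03 and 08. Ubtf had 34.99, 23.6 and 24.04 TPM in FOXO3 KO 1, 2 and 3 and 43.7, 41.2 and 34.9 TPM in FOXO3 KO 05, 06 and 09, against 24.5, 26.6 and 22.8 TPM in WT 1, 2 and 3 and 39.2 and 28.2 TPM in WT 03 and 08. For both genes FOXO3 KO 1 was the library of the first series that reached into the second. Dkc1 did not pass, with a difference of 0.63 (SE 0.25, limma adjusted p = 0.098). It passed as higher in 2 of 18 alternatives, 1 of them quantile normalization (0.76, limma adjusted p = 0.045). Riok1 pointed the other way, with 12.8 ± 3.06 TPM in the second series and 17.7 ± 2.43 TPM in the first, a difference of -0.48 (SE 0.17, limma adjusted p = 0.066). Riok1 passed as lower under quantile normalization, after rescaling to the sum without the 20 most abundant genes and without WT 03 (limma adjusted p = 0.035, 0.024 and 0.0081). Pno1 had the lowest value of all, -0.51 (SE 0.27, limma adjusted p = 0.19). The late 40S group had a median near 0, -0.01, while box H/ACA and box C/D proteins had medians of 0.52 and 0.46. Tsr1 differed by 0.08 (SE 0.20, limma adjusted p = 0.81), which turned to -0.035 without FOXO3 KO 05.

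**Figure D4:**
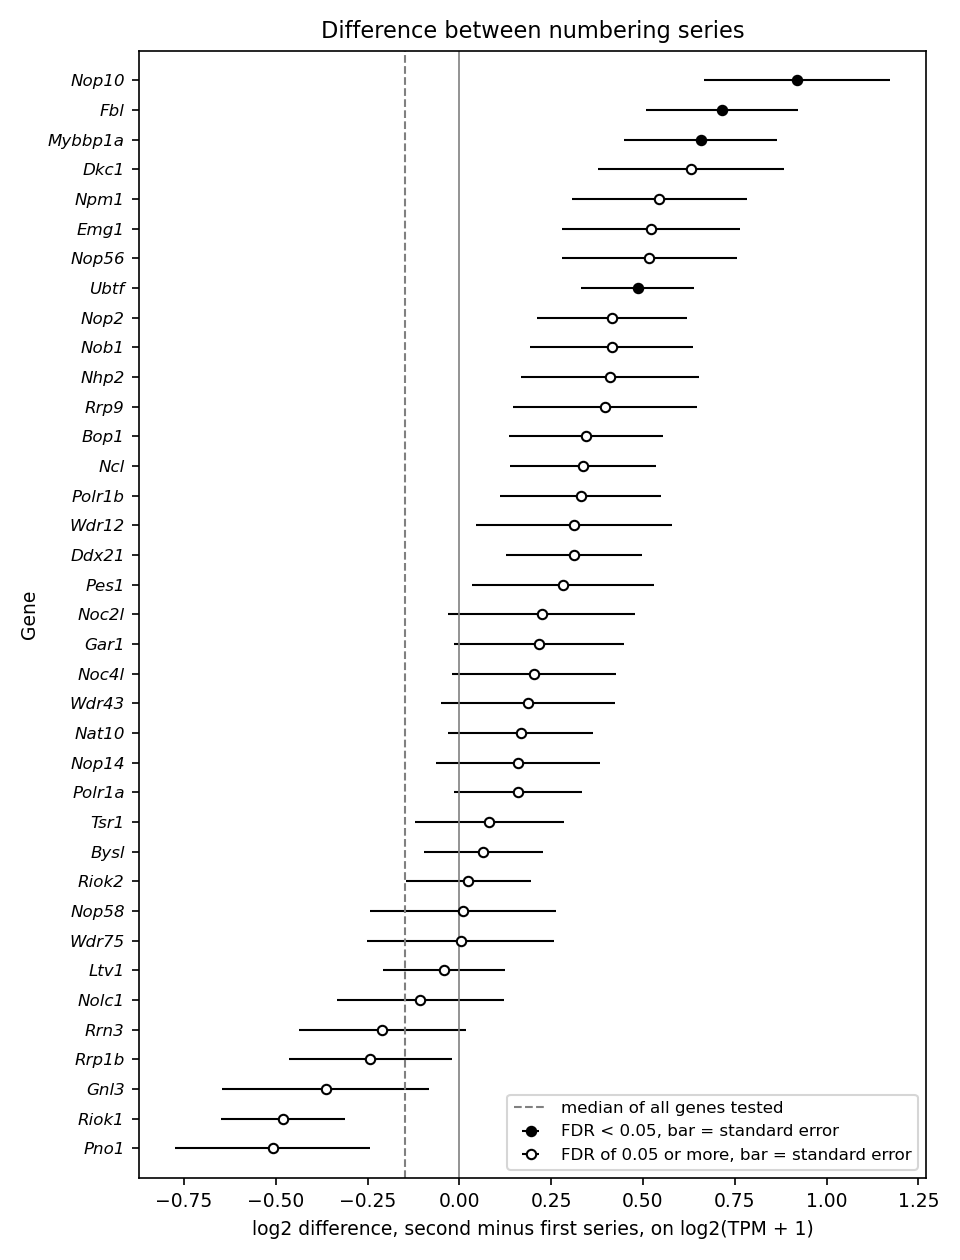
Log2 difference between the second and the first numbering series for each gene, with genotype in the model (points with standard error; filled, FDR < 0.05); the dashed line is the median of all genes tested, -0.15. Nop10, Fbl, Mybbp1a and Ubtf are filled, Tsr1 lies near 0 at 0.08, and Riok1 and Pno1 lie farthest to the left.

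The difference between genotypes was not shown to depend on the series for any of the 37. The interaction term gave 0 calls at FDR < 0.05 among the 37 and 0% of all genes in limma, with 0 of the 37 and 254 of all genes at an unadjusted p under 0.05. The largest interaction terms were those of Pes1 at -0.40 (SE 0.51), Nop56 at 0.39 (SE 0.49), Dkc1 at 0.36 (SE 0.52) and Rrn3 at -0.35 (SE 0.47). Each was smaller than its own standard error. With 2 WT libraries in the second series, differences of this size were not resolved.

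The other genes of the pathway were read from lists of assembly factors and ribosomal proteins. Of 118 further ribosome biogenesis factors listed, 115 were tested, and 114 of them lay above 0 between FOXO3 KO and WT, with a median of 0.34 and 0 at FDR < 0.05. Senp3, a nucleolar SUMO protease, was the exception at -0.02. All 79 cytosolic ribosomal protein genes tested lay above 0 (median 0.41). In the test between series, 4 of the 115 were higher and 3 lower in the second series, with a median difference of 0.07, and both counts lie below the shares of all genes, 8.36% and 12.3%. Among these were Tcof1, the treacle protein of the rRNA genes, with a difference of 0.82 (SE 0.20, limma adjusted p = 0.013), and Exosc5, a subunit of the RNA exosome, with 0.93 (SE 0.23, limma adjusted p = 0.014). Brix1, a 60S factor, differed by -0.90 (SE 0.23, limma adjusted p = 0.019), and Riok3, the third kinase of the RIO family, by -0.46 (SE 0.13, limma adjusted p = 0.030). Of the ribosomal protein genes, 78 of 79 had a difference above 0, and 74 of 79 were higher in the second series at FDR < 0.05 (all genes tested, 8.36%). The median difference was 0.22 for the 37 assembly factors and 1.12 for the ribosomal protein genes.

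All 12 mature PMN markers were above 0 in every library. S100a8 and S100a9 alone took 10.5% to 18.6% of all TPM in FOXO3 KO and 12.1% to 25.1% in WT. The summed level of all 12 was 105535 to 188084 TPM in FOXO3 KO (median 166350) and 128380 to 260094 TPM in WT (median 232658). Between genotypes 12 of 12 had a fold change below 0 (median -0.34), where 68.6% of all genes tested lay above 0. Within the first series the median was -0.47, with 0 of 12 above 0, and within the second it was -0.23, with 4 of 12 above 0. The 3 libraries with the lowest level of the 37 genes, WT 2, WT 3 and WT 08, were the 3 with the highest level of mature PMN markers. TPM are shares of a fixed total, so the level of 1 gene depends on that of the others. After rescaling to the sum without the 20 most abundant genes, the median of the 37 was 0.38 and that of all genes 0.06.

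Markers of other cells differed between libraries too. B cell markers, all 12 of which were above 0 in every library, summed to 90.2 to 5627 TPM in FOXO3 KO and 75.1 to 2059 TPM in WT, and FOXO3 KO 05 and 06 had the highest sums, 5627 and 3094 TPM. In the first series they summed to 314, 90.2 and 179.8 TPM in FOXO3 KO 1, 2 and 3 and 557, 75.1 and 426 TPM in WT 1, 2 and 3. Over all libraries 12 of 12 B cell markers had a fold change above 0 between genotypes (median 0.57). The median was -0.28 within the first series, where that of the 37 genes was 0.44 and that of all genes 0.20. Within the second series it was 0.84, where that of the 37 was 0.39 and that of all genes 0.035. At FDR < 0.05, the second series had the higher level for 12 of these 12 markers. Cell cycle genes, all 20 above 0 in every library, summed to 152 to 372 TPM in FOXO3 KO and 127 to 228 TPM in WT, and 20 of 20 had a fold change above 0 (median 0.24, with 0.0072 within the first series and 0.45 within the second).

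T cell markers summed to 13.9 to 86.5 TPM in FOXO3 KO and 10.9 to 59.5 TPM in WT, but the series did not overlap, with 53.9 to 86.5 TPM in the second and 10.9 to 17.5 TPM in the first, and 8 of 8 tested were higher in the second at FDR < 0.05. Between genotypes 8 of 8 lay above 0 (median 0.33, with 0.20 within the first series and 0.27 within the second). Intestinal epithelial markers, of which 7 of 14 were at 0 in some libraries, summed to 25.7 to 43.8 TPM in the second series and 4.09 to 6.96 TPM in the first, and 6 of 7 tested were higher in the second at FDR < 0.05. Between genotypes 6 of 7 lay above 0 (median 0.27, with -0.09 within the first series and 0.22 within the second). Mast cell and basophil markers, all 9 above 0 in every library, summed to 53.8 to 545 TPM in FOXO3 KO and 25.6 to 168 TPM in WT. FOXO3 KO 05, the highest library for 25 of the 37 genes, had the 545 TPM, and the next library, FOXO3 KO 06, had 191.5 TPM. Of the mast cell and basophil markers, 7 of 7 tested had a fold change above 0 between genotypes (median 0.43), and the median was -0.08 within the first series and 0.65 within the second. Monocyte markers summed to 1024 to 2197 TPM in FOXO3 KO and 1282 to 2103 TPM in WT, with 1 of 6 above 0 between genotypes (median -0.18, with 0.76 within the first series and -0.98 within the second). PMN precursor markers, with Ctsg, Elane, Mpo and Ms4a3 at 0 in some libraries, summed to 15.1 to 27.9 TPM in FOXO3 KO and 19.3 to 34.5 TPM in WT. Macrophage markers, with Vsig4 at 0 in some libraries, summed to 208 to 825 TPM in FOXO3 KO and 266 to 1024 TPM in WT, with 1 of 10 above 0 (median -0.30). Eosinophil markers, with Ear1 and Epx at 0 in some, summed to 27.8 to 119 TPM in FOXO3 KO and 28.8 to 149 TPM in WT, with 0 of 6 above 0 (median -0.40). In such bulk samples, a smaller share of 1 cell type and less RNA per cell cannot be told apart, and the part of these cells in the values of the 37 genes was not tested.

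**Figure D5:**
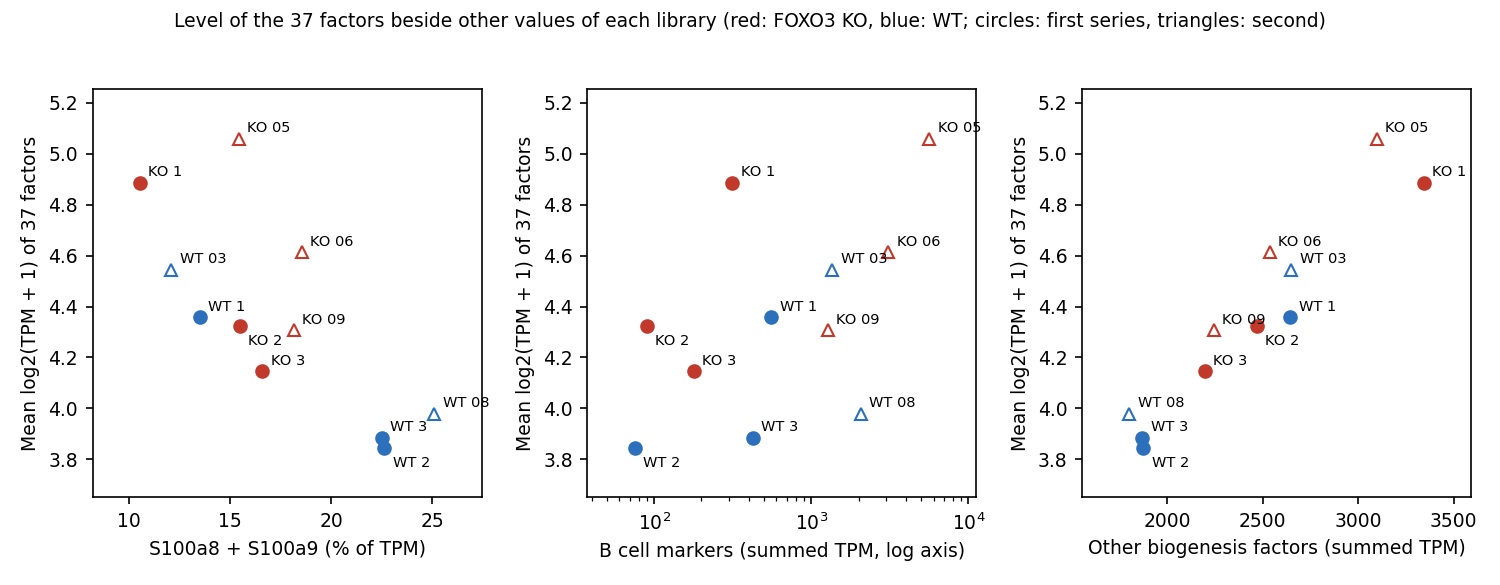
Mean log2(TPM + 1) of the 37 genes in each library beside the share of TPM taken by S100a8 and S100a9, the summed B cell markers on a log axis, and the summed other ribosome biogenesis factors (red FOXO3 KO, blue WT; circles first series, triangles second). WT 2, WT 3 and WT 08 combine the lowest level of the 37 genes with the highest S100a8 and S100a9 share. FOXO3 KO 05 is highest for both the 37 genes and the B cell markers (5627 TPM). FOXO3 KO 1 is also high for the 37 genes, with B cell markers at 314 TPM.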

How the data were processed

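RNA of intraperitoneal PMNs was sequenced as paired ends from 6 FOXO3 KO and 5 WT mice. The deposited values are TPM per gene and library, calculated by the authors. The same table holds the authors' mean normalized count over all libraries, a signal, which they deposited for each gene, and it was 259 to 7237 for the 37 genes. It also holds the authors' fold changes, p-values and adjusted p-values, which were not used. DESeq2, kallisto 0.46.0 and STAR 2.6.1d, and the builds mm10 and hg38, stand in the submitters' processing notes without roles. Library depth is unknown, since TPM keep none. Columns summed to 935140 to 952238 TPM. The columns not tied to a sample or group numbered 0.

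Genes averaging 1 TPM or more (12195) were fitted as log2(TPM + 1) with limma 3.58.1 in R 4.3.3. The prior variance followed a trend on mean level, and p-values were adjusted over all these genes by the method of Benjamini and Hochberg. The models held genotype, genotype and numbering series, or both with their interaction. The members and gene lists were chosen with earlier results of these data known. Genes given library by library were Tsr1, the 6 most abundant, the 6 with the largest difference between genotypes, the 6 with the smallest p between series and the 4 with the largest difference of within-series fold changes. Single values of other members are descriptive. Outside the list, Foxo3 and the 4 further factors with the smallest p between series were named by rule, while Senp3, the small nucleolar RNAs and the genes on the other strand were named after their values were seen. Coordinates and exon overlaps are from GENCODE M21 (GRCm38), and promoters were matched by symbol to RefSeq (GRCm38.p6). Second-series columns were tied by their names to a genotype but not to single labelled mice. Across genes, the deviations of same-numbered libraries from their genotype means had correlations of 0.55, 0.60 and 0.48. Within the first series alone the correlations were 0.51, 0.17 and 0.41. Libraries of unequal number were not compared in this way, and the values over both series also hold any difference between the series. These correlations therefore cannot show whether equal numbers mark pairs. Equal numbers were treated as pairs only in 1 alternative, the replicate block, and where libraries of equal number were set against each other. The main models held no pairing, and no source says that equal numbers mark pairs. Alternatives were other pseudocounts, filters and scalings, a replicate block, each series alone, Xist as a covariate and each library left out. The mice are separate animals, so the p-values rest on the spread between mice within the groups, which also holds counting error. For the split into series, they do not measure how far another such series would differ.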

Additional observations from a re-analysis of the deposited data

Results flagged for a closer look

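Of 40 sets of values examined (19 genes and the mean of the 37 genes, in each genotype), 1 held a library whose distance from its nearest neighbour exceeded Dixon's critical value, here 0.71 for 5 libraries. Riok1 was at 8.30 TPM in WT 08, where the other 4 WT libraries lay between 15.3 and 16.6 TPM. On the log2(TPM + 1) scale, on which the rule was applied, the gap took 0.88 of the range. Chance alone flags about 1 in 20 such sets.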

How the results depend on the processing

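The median of the 37 genes between FOXO3 KO and WT stayed above 0 under all 22 alternatives, from 0.26 (without FOXO3 KO 05 and 06) to 0.56 (without WT 03), and 36 or 37 genes lay above 0. With the replicate block, the median was 0.39, and the block changed no call. With Xist as a covariate, the median was 0.44. No gene of the 37 passed FDR < 0.05 under any alternative, the replicate block included. Riok1 moved to -0.01 without WT 08. Of the 37 genes, 4 were called higher in the second series, and this number was 0 with no filter on low values (limma adjusted p = 0.051 for Nop10), 10 with quantile normalization, 0 without FOXO3 KO 05 and 06, and 0 to 4 when single libraries were left out. Genes lower in the second series numbered 1 with quantile normalization and 1 after rescaling, both times Riok1, and 0 to 2 with single libraries left out. The difference of Tsr1 between series reversed to -0.035 without FOXO3 KO 05 (-0.035 to 0.22 with single libraries left out) and to -0.11 without FOXO3 KO 05 and 06. The median of all genes between the series was -0.15, and -0.05 with quantile normalization. The cause of these changes was not tested. The depth of the libraries is unknown, so counting error could not be separated from the spread between mice.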
